A study of Rattus norvegicus with 20 samples.

Results

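The cytosolic ribosomal protein genes of the rat were followed through dorsal root ganglia (DRG) of animals on 2 dietary oils, with and without nerve injury. Members were the rows of the gene count table that are annotated as protein coding and carry a symbol of the standard Rpl or Rps form, which gave 86 of 39747 rows. Of these, 34 encode proteins of the small (40S) subunit and 52 encode proteins of the large (60S) subunit or their close paralogs. The symbol rule used no measured value, though this gene set was chosen with earlier results of these data known. Each of the 86 is accounted for in what follows, and 81 of them (34 small, 47 large) reached the count minimum for a test among the left DRG.

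The ribosome is the particle that translates mRNA into protein. Its small subunit reads the mRNA and its large subunit joins the amino acids, and each subunit needs its proteins in fixed proportions. The mRNAs of these proteins are short, abundant and usually begin with a C followed by a run of pyrimidines, the 5′ terminal oligopyrimidine (TOP) motif, through which mTORC1 and LARP1 govern their translation. In the DRG, which hold the cell bodies of sensory neurons together with satellite glia, Schwann cells, macrophages and fibroblasts, ribosomal proteins are made in every one of these cells, and axons carry some of the mRNAs as well.

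All animals were female Sprague-Dawley rats, 8 to 10 weeks old. They had been fed a diet with soybean oil (SOD) or fish oil (FOD) for 4 weeks before surgery. The study's methods give a further 4 weeks of the same diets after surgery, which is longer than the 1 week to DRG collection. How these times go together is not given in the sources used here. Chronic constriction injury (CCI) was made with 4 loose ligatures of chromic gut on the left sciatic nerve, and in the sham operation (CT) that nerve was exposed and not tied. Left DRG were collected 1 week later, giving 4 SOD-CT, 3 FOD-CT, 3 SOD-CCI and 4 FOD-CCI libraries from 14 rats, and the contralateral DRG of 3 SOD-CCI and 3 FOD-CCI rats gave 6 more libraries. No contralateral DRG of sham rats and no uninjured DRG of rats on ordinary chow were analysed here, so every control rat carried the exposed nerve and 1 of the oils, and the contralateral DRG came from injured animals.

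Total counts ran from 22547190 to 54437581 per library. Markers of sensory neurons (16 of 16), satellite glia (7 of 7) and Schwann cells (8 of 8) were above 1 CPM in the median library. Several libraries carried markers of other tissue (CPM, counts scaled by library size). Summed skeletal muscle markers reached 217668 CPM in SOD-CT replicate 1 and 33255.6 CPM in FOD-CT replicate 2, 11160.8 CPM in contralateral FOD-CCI replicate 3, 8024.22 CPM in SOD-CT replicate 4 and at most 2956 CPM in the other 16 libraries. Summed spinal cord markers reached 4275 CPM in FOD-CT replicate 1, 3228 CPM in FOD-CCI replicate 1 and 5057 CPM in contralateral FOD-CCI replicate 1, against at most 123 CPM in the other 17. Summed neuron markers were lowest in contralateral FOD-CCI replicate 1 (4943 CPM), FOD-CT replicate 1 (15729 CPM) and SOD-CT replicate 1 (16648 CPM), and lay between 24966 and 39471 CPM elsewhere. Red cell markers, led by hemoglobin genes, reached 6740 CPM in FOD-CCI replicate 2. The part of these other tissues in the ribosomal protein values was not tested. Counts and medians are also given without single libraries where that moved them. Since whole tissue was sequenced, fewer cells of a type and less RNA per cell cannot be told apart in any of these values.

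The TOP motif is the sequence that ribosomal protein genes are best known to share, and the rule did not use it. Of the 86 members, 66 had a promoter window in RefSeq (build GRCr8) under the same gene ID. The annotated transcript began with a C followed by at least 4 pyrimidines in 22 of the 66 (33.3%), against 2.63% of 33469 rat promoters. Such a run began within 5 bases of the annotated start in 38 members (57.6%), against 17% of all promoters. The letters CCGGAAG, the core bound by GABP and other ETS factors, occurred on either strand of the 300-base window in 20 members (30.3%) and in 8.75% of all. The letters AAGATGG, the core bound by YY1, occurred in 10 members (15.2%) and in 7.01% of all, and TATAAA in 9 members (13.6%) and in 14.2% of all. These matches are letters in a window and not measured sites. The windows of 8 genes are given: Rps14, Rps27a, Rpl36a, Rpl26 and Rpl22l1 had large differences between the diets, Rpl7l1 and Rpl6 varied least within groups, and Rpl3 was among the members that followed the others least. Each runs from 10 bases before the annotated start to 20 bases from it, so that the start is base 11, and capitals mark the C and the pyrimidines after it where such a run begins within 5 bases of the start.
Rps14 (chr18:56498250-56498279, + strand): ccgtctctctCTTTCCggtggaggagtctg
Rps27a (chr14:107488922-107488951, - strand): agggcggttCCTTCgacccggagactcggt
Rpl36a (chrX:102059439-102059468, + strand): tataaaCTTCCgttgctgctctagcctctc
Rpl26 (chr10:54109682-54109711, + strand): gtcaacttacagaaccggaagtcgcatgta
Rpl22l1 (chr2:113683186-113683215, + strand): gtggatatccggttccgagttgcgcagcgc
Rpl3 (chr7:113507971-113508000, - strand): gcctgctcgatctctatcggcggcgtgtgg
Rpl7l1 (chr9:21695708-21695737, + strand): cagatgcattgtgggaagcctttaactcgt
Rpl6 (chr12:41011671-41011700, - strand): ttacatcactagatggcgggtgaaaaggcg
Rps14, Rps27a and Rpl36a carried a run near the annotated start, and the other 5 windows carried none there. The genes were picked by their expression values, so nothing about the run can be read from them. The window of Rpl26 holds ccggaag a few bases after the annotated start.

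On the deposited FPKM scale, which divides by gene length and so allows genes to be compared with each other, the highest mean levels over the 20 libraries belonged to Rpl41 (1776 FPKM), Rpl31 (1490.0 FPKM), Rps14 (1416 FPKM), Rpl26 (1296 FPKM) and Rpl13a (1263 FPKM). Rpl41 encodes the smallest protein of the ribosome, and its level ran from 730.2 FPKM in a contralateral SOD-CCI library to 4444 FPKM in SOD-CT replicate 1. The lowest mean levels among tested members belonged to Rps10l1 (57.7 FPKM), Rpl37a (40.0 FPKM), Rps27l (38.7 FPKM), Rpl7l1 (32.5 FPKM) and Rps4y2 (5.01 FPKM). Most ribosomal proteins are present once in each particle, so the distance in FPKM between Rpl37a and Rpl31 cannot be read as one between proteins. Processed copies of these genes are many in the rat genome, and whether reads that fit several copies were counted is not given in the sources used here.

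Of the 5 members not tested in the left DRG, Rpl36al was listed at 0 in all 20 libraries and Rpl30l1 never exceeded 0.121 FPKM. Rpl10l, a copy of Rpl10 known from testis, lay between 0 and 3.03 FPKM and reached 10 counts in 17 libraries. Rpl39l, the testis copy of Rpl39, lay between 0 and 5.23 FPKM and reached 10 counts in 14 libraries. Rpl3l is the striated muscle paralog of Rpl3. It stood at 434, 0.567, 0.212 and 16.1 FPKM in SOD-CT replicates 1 to 4, at 6.38, 67.9 and 2.60 FPKM in FOD-CT replicates 1 to 3, and at most at 22.5 FPKM in the injured rats. The 4 libraries with the most Rpl3l were those with the most skeletal muscle markers. Rplp2, a stalk gene, was not analysed here, since the table lists no row under its symbol.

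The 86 members took 1.33% to 4.00% of the counts of a library. Their joint level was followed as a member index, the mean over the 81 members of log2 CPM, the counts scaled to the size of the library (TMM), less each gene's mean over the 20 libraries. The index was 1.06, -0.15, -0.44 and 0.27 in SOD-CT replicates 1 to 4, and -0.38, -0.62 and -0.45 in the SOD-CCI replicates. It was -0.16, 0.06 and -0.16 in the FOD-CT replicates, and -0.10, 0.66, 0.15 and 0.38 in the FOD-CCI replicates. On the contralateral side it was 0.08, -0.39 and -0.86 in the SOD-CCI rats and 0.32, 0.19 and 0.54 in the FOD-CCI rats. SOD-CCI libraries were therefore all below FOD-CCI libraries on the left, and the contralateral libraries of the 2 diets were separated in the same direction. SOD-CT was the most dispersed group (0.19 ± 0.65 SD, n = 4), with its highest value in the library with the most muscle markers, and FOD-CT the least (-0.09 ± 0.12 SD, n = 3).

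**Figure D1:**
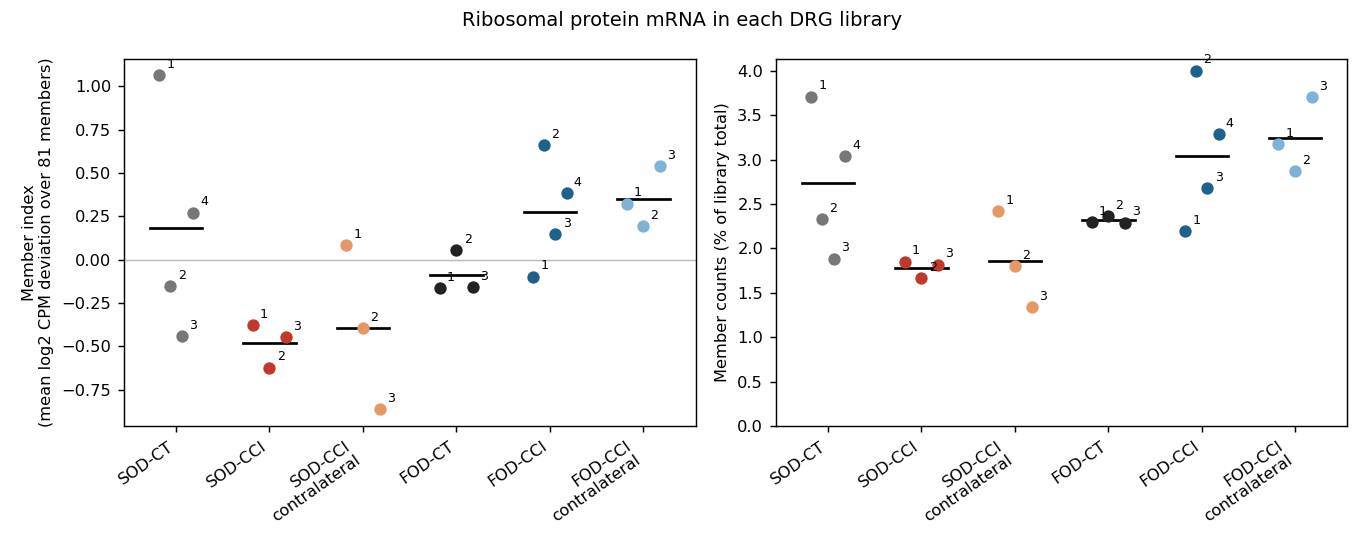
Level of the ribosomal protein genes in each of the 20 libraries, as the member index in log2 units and as the percentage of all counts, by group. Points are libraries numbered by replicate and bars are group means. SOD-CT replicate 1 lies highest on the index at 1.06 and FOD-CCI replicate 2 on the share of counts at 4.00%, whereas the SOD-CCI libraries lie between 1.67% and 1.85%.

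The members varied together between libraries. Spearman's correlation of each member with the mean of the others, over the 20 libraries, had a median of 0.87, and the same value over genes outside the set had a median of -0.04. This is a description, since the points share libraries and scaling. Rpl27a (0.98) and Rpl11 (0.97) followed the others most closely. Rps4y2 (-0.08), Rpl3 (0.48), Rps12 (0.58) and Rpl7a (0.59) followed them least. The median SD of log2 CPM within groups was 0.446 for members and 0.517 for all genes, and it was smallest for Rpl7l1 (0.197), Rpl6 (0.274) and Rpl14 (0.301) and largest for Rps4y2 (1.92), Rps27a (0.921) and Rpl22l1 (0.750).

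**Figure D2:**
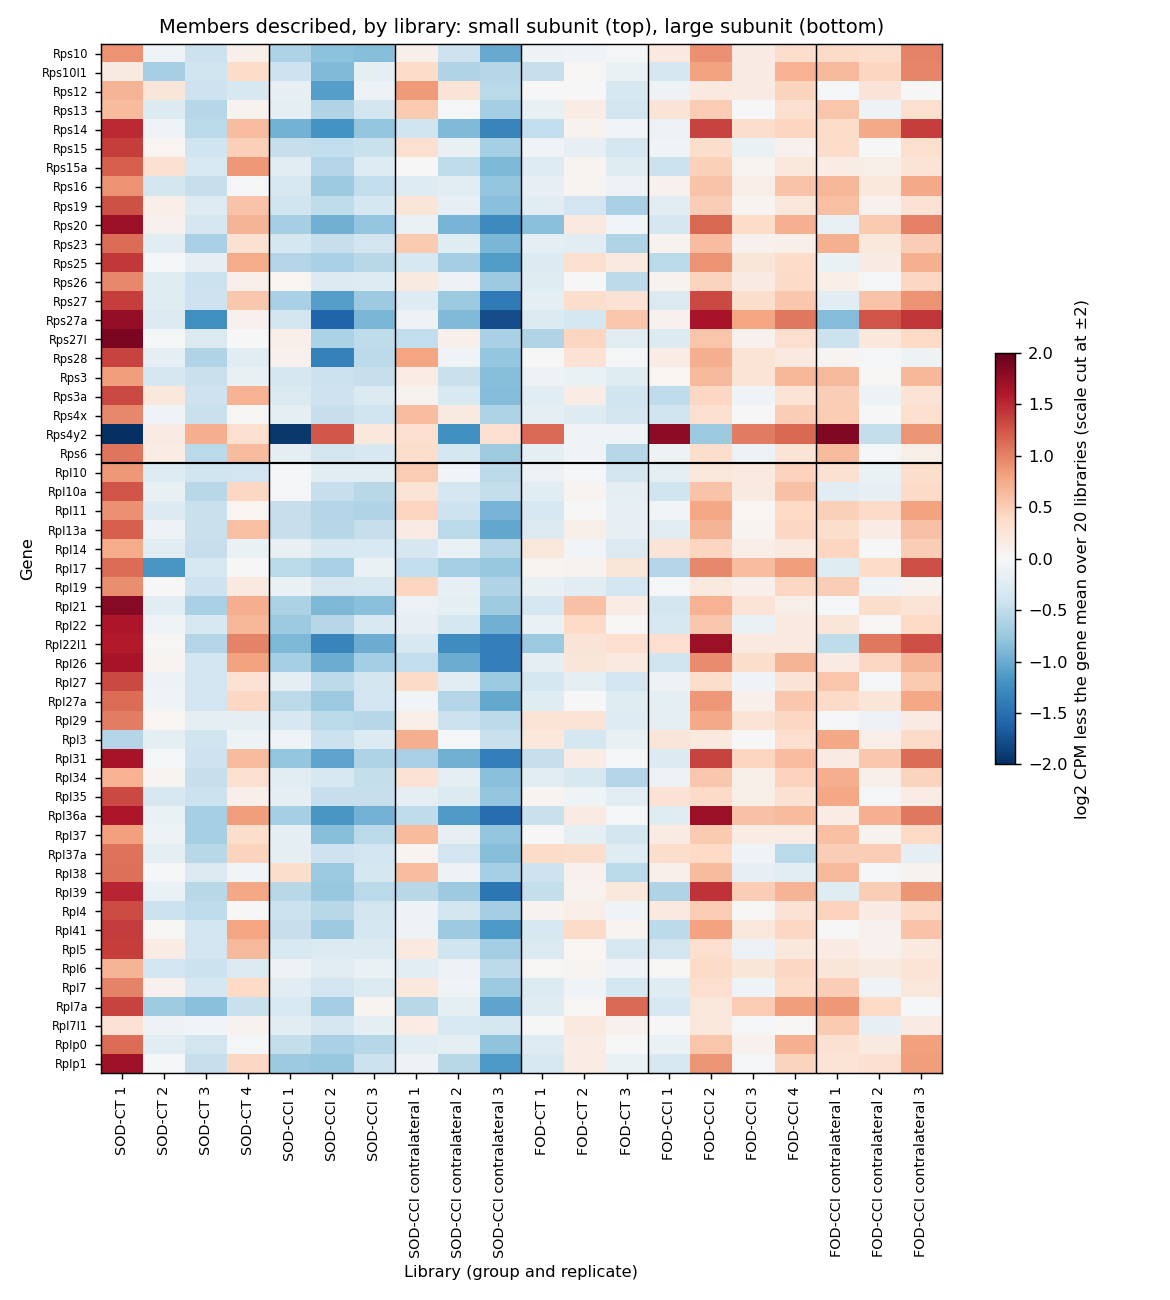
Log2 CPM of the 54 members that the text describes by name (rows) in the 20 libraries (columns, by group), each less the gene's mean over all libraries. Most rows change together from column to column. SOD-CT replicate 1 and FOD-CCI replicate 2 stand out as high, and contralateral SOD-CCI replicate 3 as low.

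Whether the oil of the diet went with another level of these genes in injured DRG was asked by comparing FOD-CCI with SOD-CCI. All 81 tested members had a higher fitted mean in FOD-CCI, with a median log2 fold change of 0.71 (range 0.30 to 1.87), against a median of 0.04 over all 14484 genes tested. Of the marker lists, that of spinal cord alone separated these groups. It stood at 3228 CPM in FOD-CCI replicate 1, at 72.6 to 75.6 CPM in the other FOD-CCI libraries and at 51.8 to 60.7 CPM in SOD-CCI. SOD-CT replicates 1 and 4 stood at 123 and 83.9 CPM. Of the 11 markers in the spinal cord list, 4 were above 1 CPM in the median library, and Gfap had the highest median (28.9 CPM). Apart from FOD-CCI replicate 1, the separation therefore rests on few genes. The part of this list in the result was not tested beyond leaving out FOD-CCI replicate 1, which gave a median of 0.79. Leaving out FOD-CCI replicate 2 gave a median of 0.59. None of the 81 members was called by the edgeR quasi-likelihood test at an adjusted p of 0.1 and a fold change of 1.2, and no gene of the 14484 was (0% called). At an unadjusted p under 0.05, 36 of the 81 were higher and 0 lower, against 3.87% of all genes that were higher. All 4 FOD-CCI libraries lay above all 3 SOD-CCI libraries for 60 of the 81 members and for 7.53% of all genes. Limma and DESeq2 called 0 members as well. SOD-CT replicate 1 is in neither group, but it enters the gene filter, the scaling and the estimate of the spread. With it removed from the model, DESeq2 called 30 members, all higher, among 173 genes. The same removal took the edgeR count at an unadjusted p under 0.05 to 68. Without SOD-CCI replicate 2 that count was 17, and without FOD-CCI replicate 2 it was 19. The share of all genes at that p with libraries left out is not given, here or for the comparisons below. A change in such a count therefore cannot be read as particular to the members.

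The member that differed most was Rps27a, which encodes ubiquitin fused to a 40S protein. It stood at 386, 163 and 261 FPKM in the SOD-CCI replicates and at 524, 1568, 856 and 1006 FPKM in the FOD-CCI replicates. Every FOD-CCI library was above every SOD-CCI library, and the log2 fold change was 1.87 (SE 0.62, unadjusted p = 0.00888, adjusted p = 0.859 in edgeR). The promoter window of Rps27a printed above has its pyrimidine run 1 base before the annotated start.

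Rpl22l1, the paralog of Rpl22 that replaces it in some ribosomes, stood at 150.3, 112 and 138 FPKM in SOD-CCI and at 353, 935, 321 and 313 FPKM in FOD-CCI. Its log2 fold change was 1.84 (SE 0.52, unadjusted p = 0.00346, adjusted p = 0.859). Replicate 2 lay far above the other 3 FOD-CCI libraries, all of which were still above SOD-CCI. Its partner Rpl22 had a log2 fold change of 0.63, with values of 98.4, 108 and 130 FPKM in SOD-CCI and 128, 238, 148 and 181 FPKM in FOD-CCI that overlapped.

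Rpl36a, a 60S protein whose gene lies on the X chromosome, stood at 148, 104 and 119 FPKM in SOD-CCI and at 195, 767, 348 and 352 FPKM in FOD-CCI. The groups did not overlap, and the log2 fold change was 1.74 (SE 0.52, unadjusted p = 0.00471, adjusted p = 0.859). Rps14, a 40S protein at the platform where mRNA is held, stood at 624, 515 and 682 FPKM against 1097, 3064, 1521 and 1570 FPKM, a log2 fold change of 1.57 (SE 0.45, unadjusted p = 0.00369). In both Rpl36a and Rps14 the lowest FOD-CCI library was replicate 1, which carried spinal cord markers, and the highest was replicate 2. Log2 fold changes of 1.41 for Rps27, 1.29 for Rpl39 and 1.24 for Rpl26 were further large values among the members the study names.

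At the other end stood members with small differences in the same direction. Rpl7l1, a paralog of Rpl7, was the least variable member and stood at 27.7, 25.3 and 28.1 FPKM in SOD-CCI and 32.2, 37.6, 31.3 and 31.8 FPKM in FOD-CCI. Its groups did not overlap although the log2 fold change was only 0.30 (SE 0.16). Rpl38 (0.30, SE 0.36) and Rpl5 (0.33, SE 0.33), the latter a carrier of 5S rRNA that also binds MDM2, were no further apart than their standard errors. The 2-fold line was passed by 14 of the 81 members.

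The stalk of the large subunit recruits the factors of elongation. Rplp0, its base, stood at 444, 389 and 409 FPKM in SOD-CCI and 553, 909, 651 and 983 FPKM in FOD-CCI, a log2 fold change of 0.90. Rplp1, which joins it in pairs, stood at 677, 661 and 820 FPKM against 895, 2094, 1106 and 1500 FPKM, a log2 fold change of 0.96. Rpl35 and Rpl4, which lie at the exit tunnel of the 60S subunit, showed narrower groups. Rpl35 had 319 ± 37.4 FPKM in SOD-CCI and 500 ± 38.5 FPKM in FOD-CCI (SD, n = 3 and n = 4), and Rpl4 had 272 ± 17.5 FPKM and 446 ± 64.9 FPKM. Their log2 fold changes were 0.65 and 0.71, near the median of the set.

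Injury on the soy oil diet was examined by setting SOD-CCI against SOD-CT. The fitted mean was lower in SOD-CCI for 79 of the 81 members, with a median log2 fold change of -0.73 (quartiles -1.04 and -0.54) against -0.01 for all genes. edgeR called 0 members and 0% of all genes, and limma called 0 members. DESeq2 called 23 members, all lower, among 594 genes. At an unadjusted p under 0.05, edgeR had 41 members lower, against 8.8% of all genes that were lower. All SOD-CCI libraries lay below all SOD-CT libraries for 22 members and for 7.48% of all genes. The size of the difference rested on SOD-CT replicate 1, the library with the most muscle markers. Without it the median was -0.33, the count at an unadjusted p under 0.05 was 22, and DESeq2 called 0 members, while 22 members still did not overlap, against 10.1% of all genes. Without SOD-CT replicate 3 the count was 65, and without SOD-CCI replicate 2 it was 22.

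Rpl22l1 had the largest difference here, with 882, 284, 189 and 565 FPKM in SOD-CT against 150.3, 112 and 138 FPKM in SOD-CCI. Its log2 fold change was -1.80 (SE 0.52, unadjusted p = 0.00397, adjusted p = 0.266). Rpl36a had a log2 fold change of -1.58 (SE 0.52), with 746, 212, 148 and 422 FPKM in SOD-CT, and overlapped SOD-CCI at its lowest sham library. Rps14 had a log2 fold change of -1.55, Rps27a of -1.37, Rps27 of -1.31 and Rplp1 of -1.28.

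Rpl3, which lies at the peptidyl transferase center, stood apart from this. It had 242, 307, 267 and 330.1 FPKM in SOD-CT and 330.3, 257 and 284 FPKM in SOD-CCI, a log2 fold change of 0.05 (SE 0.20), and the sham library in which most members peaked was its lowest. Rpl3l, its muscle paralog, was at 434 FPKM in that same library. Rpl6 had a log2 fold change of -0.12 that turned to 0.21 without SOD-CT replicate 1. Rps4y2, a paralog of Rps4x at a few FPKM, had 0, 3.80, 5.68 and 4.34 FPKM in SOD-CT against 0.867, 8.08 and 3.89 FPKM in SOD-CCI and a log2 fold change of 0.32 with an SE of 0.99.

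Injury on the fish oil diet was examined in the same way. The fitted mean was higher in FOD-CCI than in FOD-CT for 77 of 81 members, with a median log2 fold change of 0.38 (range -0.11 to 0.96). Summed skeletal muscle markers separated the groups the other way, at 130.2 to 432 CPM in FOD-CCI and 899 to 33256 CPM in FOD-CT, and their part was not tested. edgeR, limma and DESeq2 called 0 members, and edgeR called 0% of all genes. At an unadjusted p under 0.05 there was 1 member higher, Rpl34, against 3.2% of all genes, a share that the members did not exceed. Rpl34, a 60S protein, had 321, 297 and 251 FPKM in FOD-CT and 344, 553, 408 and 508 FPKM in FOD-CCI, and a log2 fold change of 0.64 (SE 0.26, unadjusted p = 0.0251, adjusted p = 1). The groups did not overlap for 11 members, Rpl19, Rpl27, Rpl34, Rpl35, Rpl37, Rps10, Rps16, Rps19, Rps23, Rps26 and Rps3, against 2.5% of all genes. Without the 3 libraries that carried spinal cord markers, 46 members did not overlap, against 14.7% of all genes, and the median was 0.46. The count at an unadjusted p under 0.05 was 16 without SOD-CT replicate 1 in the model, 5 without FOD-CCI replicate 1 and 0 without FOD-CT replicate 3, FOD-CCI replicate 2 or FOD-CCI replicate 4.

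Rps27a (0.96, SE 0.59) and Rpl36a (0.92) had the largest log2 fold changes of this comparison. Rps27a stood at 406, 383 and 729 FPKM in FOD-CT, so that FOD-CCI replicate 1 at 524 FPKM fell among the sham values. Rpl37a (-0.11), Rpl7a (-0.06) and Rpl7l1 (-0.04) were the lowest.

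The sham rats of the 2 diets were compared to see how the oils differed without ligatures. The fitted mean was lower in FOD-CT than in SOD-CT for 76 of 81 members, with a median log2 fold change of -0.46. edgeR, limma and DESeq2 called 0 members, and edgeR called 0% of all genes. The 7 members Rps19, Rpl5, Rps15a, Rpl27, Rps15, Rps6 and Rpl34 were lower at an unadjusted p under 0.05, against 1.62% of all genes. The ranges did not separate for any member (0 of 81), against 1.35% of all genes. Rps19, the 40S protein most often mutated in Diamond-Blackfan anemia, had 987, 423, 329 and 589 FPKM in SOD-CT and 333, 297 and 249 FPKM in FOD-CT, and a log2 fold change of -0.95 (SE 0.31, unadjusted p = 0.00859, adjusted p = 0.965). Rps20 (-0.91) was also among the lowest members. Rps4y2 (0.43), Rpl7a (0.28) and Rpl3 (0.22) were the highest. Without SOD-CT replicate 1 the median was -0.02, with 39 of 81 members higher and 3 at an unadjusted p under 0.05. The count was 12, 30 and 2 without SOD-CT replicates 2, 3 and 4, it was 2 and 1 without FOD-CT replicates 1 and 3, and it was 4 without SOD-CCI replicate 2 or 3.

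The difference between the diets in the injury effect was fitted as an interaction over the same 14 libraries, and it shares all 4 groups with the comparisons above. All 81 members had a positive interaction, with a median of 1.12 on the log2 scale (range 0.22 to 2.62). edgeR called 0 members and 0% of all genes, limma called 0 members, and DESeq2 called 17 members among 42 genes. At an unadjusted p under 0.05 edgeR had 55 members, all positive, against 4.32% of all genes. Without SOD-CT replicate 1 the median was 0.73, the edgeR count at that p was 39 and DESeq2 called 0 members. That count was 32 without SOD-CCI replicate 2 and also without FOD-CT replicate 3. Rpl22l1 (2.55) and Rpl36a (2.50) were among the members with the largest interactions, and Rpl3 (0.22), Rpl7l1 (0.26) and Rps4y2 (0.29) the smallest.

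**Figure D3:**
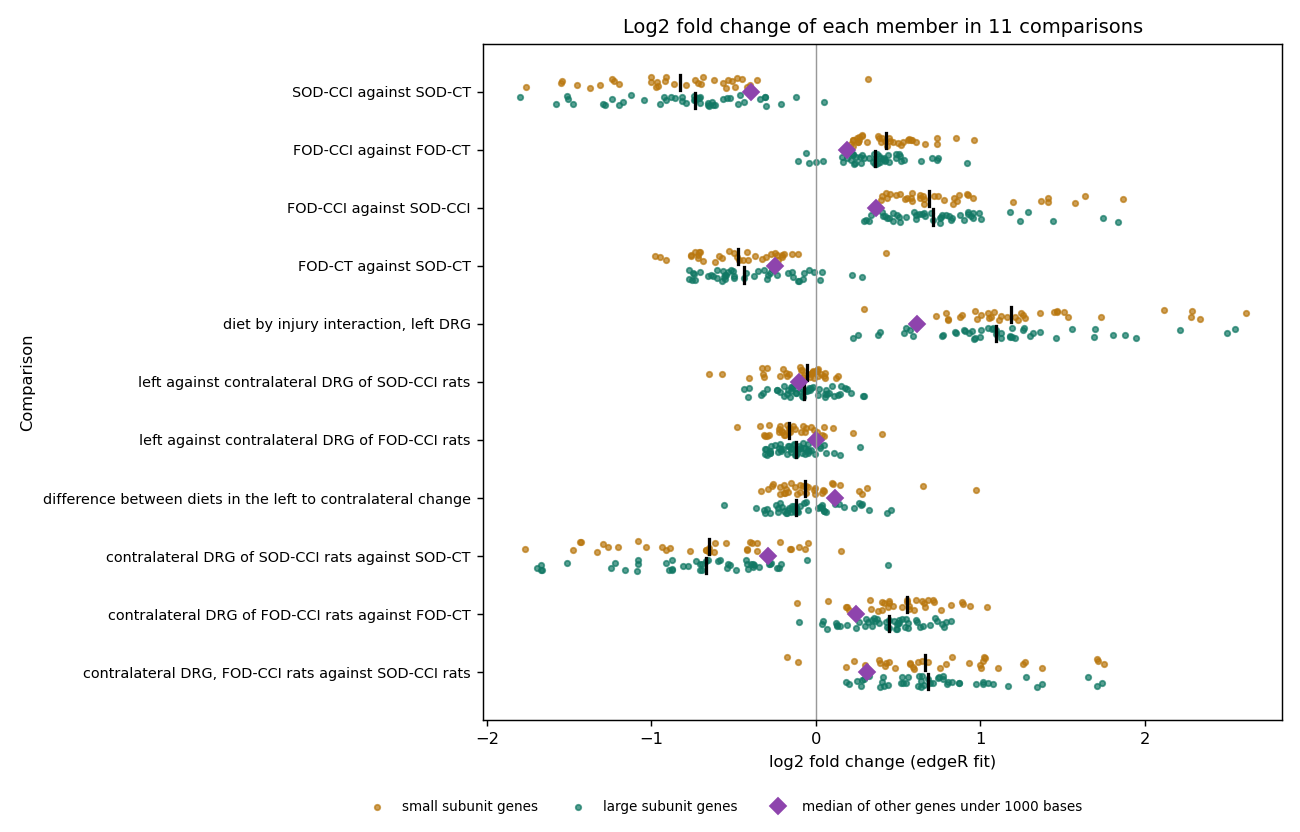
Log2 fold change of each tested member from the edgeR fits in the 11 comparisons, small subunit genes above and large subunit genes below in each row. Black bars are the medians of each subunit and purple diamonds the medians of other genes under 1000 bases. Small and large subunit medians lie close together in every row, and the diamonds lie on the same side of 0 but nearer to it in the 5 comparisons among left DRG.

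Injured and contralateral DRG of the same rats were compared in a fit with a term for each rat, over 12 libraries of 6 rats. In the SOD-CCI rats the median log2 difference, left minus contralateral, was -0.07 (range -0.65 to 0.29), with 27 of 82 members higher and 55 lower. edgeR called 0 members, against 19 of 14549 genes (0.131%), and limma and DESeq2 called 0. No member passed an unadjusted p of 0.05, against 3.14% of all genes that were lower. Rpl10a, Rpl21 and Rpl29 were lower on the left in all 3 rats, against 19.4% of all genes. Rps12 had the lowest value (-0.65, SE 0.31, unadjusted p = 0.0680), followed by Rps28 (-0.57) and Rpl21 (-0.44), and Rpl39 (0.29), Rpl7a (0.28) and Rpl17 (0.21) the highest. The median turned to 0.08 without rat 1 and was -0.33 without rat 3, when 3 members passed an unadjusted p of 0.05.

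In the FOD-CCI rats the median was -0.14 (range -0.48 to 0.40), with 14 of 82 members higher and 68 lower. edgeR called 0 members, against 2 of 14549 genes (0.0137%), and limma and DESeq2 called 0. No member passed an unadjusted p of 0.05, against 2.65% of all genes that were lower. The median was 0.04 without rat 1, both of whose libraries carried spinal cord markers, and -0.45 without rat 2, when 5 members passed. Rps28, a small 40S protein, was the only member higher on the left in all 3 rats, against 12.8% of all genes, with 123, 188 and 136 FPKM on the left and 118, 109 and 106 FPKM on the right. Its log2 difference was 0.40. Rpl29 (0.27) and Rps27a (0.23) came next, and Rps10l1 (-0.48) and Rps14 (-0.31) were among the lowest.

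The change from side to side differed between the diets by a median of -0.10 (range -0.56 to 0.98), with 29 of 82 members higher and 53 lower and 0 called by edgeR, limma or DESeq2 (0% of all genes in edgeR). Rps28 alone passed an unadjusted p of 0.05 in edgeR (0.98, SE 0.40, unadjusted p = 0.0393, adjusted p = 0.997), and it was higher, as were 0.804% of all genes at that p, while 2.11% were lower. In the SOD-CCI rats Rps28 had 120.0, 43.6 and 76.9 FPKM on the left and 190, 107 and 66.1 FPKM on the right, so the third rat went against the other 2, and without SOD-CCI rat 1 or 2 or FOD-CCI rat 2 it no longer passed. Rps12 (0.65) and Rpl29 (0.46) followed at the top and Rpl7a (-0.56), Rpl17 (-0.36) and Rps3a (-0.33) stood at the bottom.

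**Figure D4:**
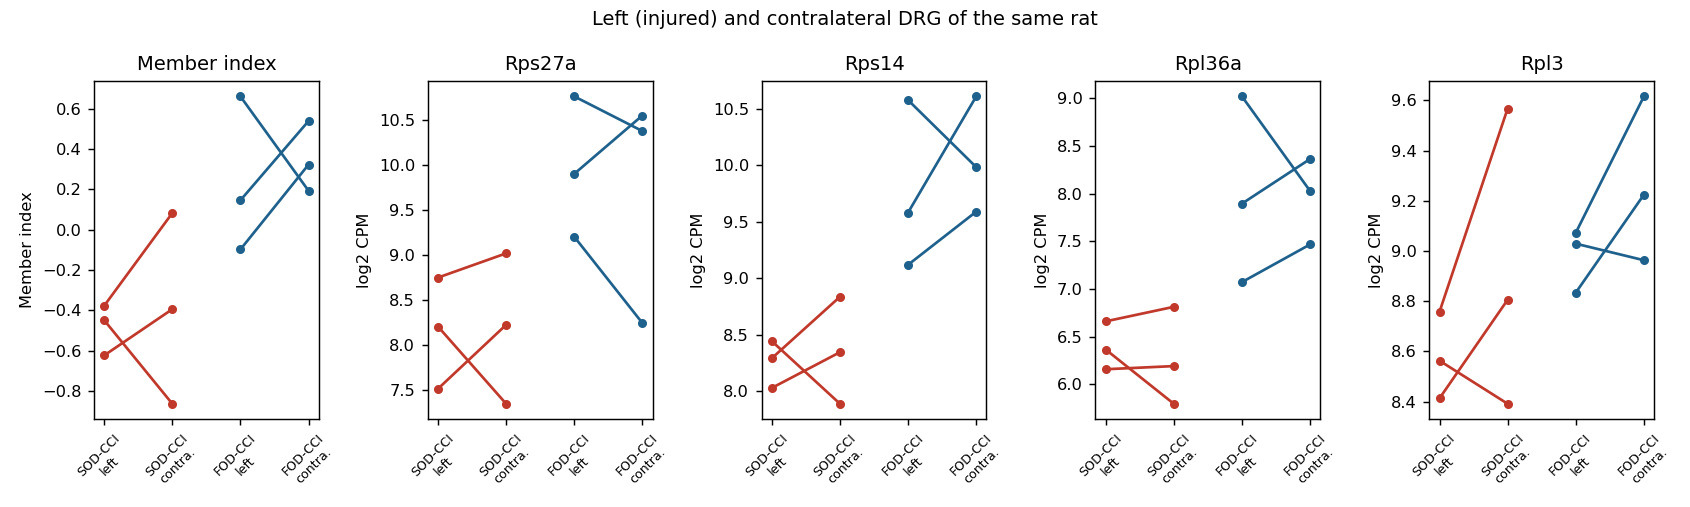
Left and contralateral values of the 6 rats with both sides, joined by a line per rat, for the member index and for log2 CPM of Rps27a, Rps14, Rpl36a and Rpl3. The lines run up in some rats and down in others within both diets. The index ran from -0.86 to 0.54 on the contralateral side, and its FOD-CCI values there (0.19 to 0.54) lay above its SOD-CCI values (-0.86 to 0.08).

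The contralateral DRG allowed the diets to be compared in tissue whose own nerve had not been tied. Contralateral FOD-CCI libraries had a higher fitted mean than contralateral SOD-CCI libraries for 79 of 81 members, with a median log2 fold change of 0.68. Markers of 2 cell types separated the same groups. Summed red cell markers were 214 to 903 CPM in contralateral FOD-CCI and 28.5 to 67.7 CPM in contralateral SOD-CCI, and summed macrophage markers were 140 to 324 CPM and 38.9 to 89.5 CPM, and their part in the result was not tested. edgeR called 0 members and 0% of all genes, limma called 0 members and DESeq2 called 1. At an unadjusted p under 0.05, 25 members were higher, against 4.5% of all genes. The groups did not overlap for 35 members, against 7.76% of all genes. Rps14 led with 889.9, 645 and 472 FPKM in the SOD-CCI rats and 1549, 2009 and 3121 FPKM in the FOD-CCI rats, a log2 fold change of 1.75 (SE 0.49, unadjusted p = 0.00334, adjusted p = 0.697), and Rpl22l1 (1.74) followed. Rps12 (-0.18), Rps28 (-0.11) and Rps4x (0.18) were the lowest. The 2 sides come from the same rats and are not independent of each other. The count at an unadjusted p under 0.05 was 42 without SOD-CT replicate 1, 12 without contralateral SOD-CCI replicate 2, and 6 without contralateral replicate 3 of either diet. Without SOD-CT replicate 1, DESeq2 called 19 members. How many of all genes DESeq2 called in these contralateral fits is not given here, so its counts of 1 and 19 cannot be set against a share.

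Rps27a, which led on the injured side, overlapped here. Contralateral FOD-CCI replicate 1, the library with the most spinal cord and fewest neuron markers, stood at 275 FPKM while replicates 2 and 3 stood at 1188 and 1348 FPKM, and the contralateral SOD-CCI rats had 455, 268 and 146 FPKM.

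The contralateral DRG were also set against sham DRG of the same diet, which are the same sham libraries that the injured DRG were compared with. Contralateral SOD-CCI was lower than SOD-CT for 79 of 81 members, with a median log2 fold change of -0.65. edgeR called 0 members and 0% of all genes, limma 0 and DESeq2 3 members. The DESeq2 count over all genes is not given here, so those 3 cannot be set against a share. At an unadjusted p under 0.05, 25 were lower, against 5.98% of all genes, and the groups did not overlap for Rpl26, Rpl31 and Rps25, against 3.63% of all genes. Rpl36a (-1.70) and Rpl26 (-1.67, unadjusted p = 0.00222, adjusted p = 0.700) were among the lowest, and Rpl3 (0.44), Rps12 (0.15) and Rps13 (-0.05) highest. Rpl26, a 60S protein that also binds p53 mRNA, had 3687, 1164, 876 and 1993 FPKM in SOD-CT and 788, 565 and 441 FPKM on the contralateral side. Without SOD-CT replicate 1 the median was -0.22 and 14 members passed an unadjusted p of 0.05. That count was 43 without SOD-CT replicate 3, and 15 and 10 without contralateral replicates 2 and 3.

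Contralateral FOD-CCI was higher than FOD-CT for 79 of 81 members, with a median log2 fold change of 0.49. Summed red cell markers were also higher, at 214 to 903 CPM against 79.4 to 180.2 CPM, and their part was not tested. edgeR, limma and DESeq2 called 0 members, and edgeR called 0% of all genes. Rps14 (1.04, unadjusted p = 0.0493), Rps10l1 (0.90) and Rpl34 passed an unadjusted p of 0.05 with adjusted p = 1, against 0.907% of all genes. The groups did not overlap for 35 members, against 4.32% of all genes. Rps28 (-0.11), Rpl29 (-0.10) and Rpl21 (0.04) were lowest. The count at an unadjusted p under 0.05 was 15 without SOD-CT replicate 1, 1 without any of the FOD-CT replicates and 0 without contralateral FOD-CCI replicate 3.

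The medians of the 2 subunits lay close together. Median log2 fold changes of small and large subunit members were 0.69 and 0.71 in FOD-CCI against SOD-CCI, -0.82 and -0.73 in SOD-CCI against SOD-CT, and 0.43 and 0.36 in FOD-CCI against FOD-CT. They were -0.47 and -0.44 in FOD-CT against SOD-CT and 1.19 and 1.09 for the interaction. On the contralateral side they were 0.66 and 0.68 between the diets. Within each library the index of small subunit genes less that of large subunit genes ran from -0.19 in SOD-CT replicate 1 to 0.12 in contralateral SOD-CCI replicate 1. Its group means ran from -0.06 in FOD-CT to 0.04 in FOD-CCI. Rps4y2, a small subunit gene at 0 FPKM in SOD-CT replicate 1, entered the value of that library with a log2 CPM deviation of -6.64. On log2(FPKM + 1) the difference between the subunits was 0.033 there, within the 0.0078 to 0.20 of the other libraries. The FOD-CCI libraries (-0.0031 to 0.081) all lay above the FOD-CT (-0.081 to -0.039) and the SOD-CCI libraries (-0.058 to -0.019). This small separation was not tested. Rps4y2, at a few FPKM, entered it with deviations of 1.785 in FOD-CCI replicate 1 and -1.937 in SOD-CCI replicate 1. The index without Rps4y2 was not computed, so the separation cannot be read as one between the subunits. SOD-CT spread over that whole range (SD 0.12, n = 4), with its lowest value in replicate 1.

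Among the paralog pairs, Rps27 and Rps27l had log2 fold changes of 1.41 and 0.51 in FOD-CCI against SOD-CCI whereas Rps27 had -1.31 in SOD-CCI against SOD-CT. Rps27l, a p53 target, was at 37.7, 22.2 and 24.2 FPKM in SOD-CCI and 28.6, 51.6, 37.0 and 42.9 FPKM in FOD-CCI. Rpl7 had 0.40 and Rpl7l1 0.30 between the diets, and Rps4x 0.49 and Rps4y2 0.72, the latter with an SE of 1.01. In each pair the values come from separate fits of single genes, and the difference within a pair was not tested.

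Ribosomal protein mRNAs are short, and gene length moved with these results. Tested members had gene lengths of 296 to 2507 bases with a median of 603, while the median of all tested genes was 2357. Over the 20 libraries, the member index had a Spearman correlation of 0.80 with the mean log2 CPM of other genes under 1000 bases and of -0.87 with that of genes of 5000 bases or more. These describe libraries that share depth and scaling, and no p is given. In FOD-CCI against SOD-CCI the 1284 other genes under 1000 bases had a median log2 fold change of 0.37, against 0.71 for the members. In SOD-CCI against SOD-CT the medians were -0.40 and -0.73, and between the contralateral DRG of the diets they were 0.31 and 0.68.

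Within a length class the members stood further from 0 than other genes did. In FOD-CCI against SOD-CCI, members under 600 bases had a median of 0.76 (39 members) against 0.46 for 319 other genes, and members of 600 to under 1000 bases had 0.65 (32 members) against 0.34 for 965 other genes. Members of 1000 to under 2000 bases had 0.83 (9 members) against 0.14 for 4427 other genes. In SOD-CCI against SOD-CT the same classes gave -0.96 against -0.56, -0.64 against -0.35 and -0.81 against -0.09. After each library's trend of log2 CPM deviation with gene length over all genes was taken out of the fit, the median of the members was 0.31 in FOD-CCI against SOD-CCI, with 71 of 81 still higher, and -0.27 in SOD-CCI against SOD-CT, with 20 of 81 higher. How far length, fragment size or RNA quality enters the remaining difference was not tested.

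**Figure D5:**
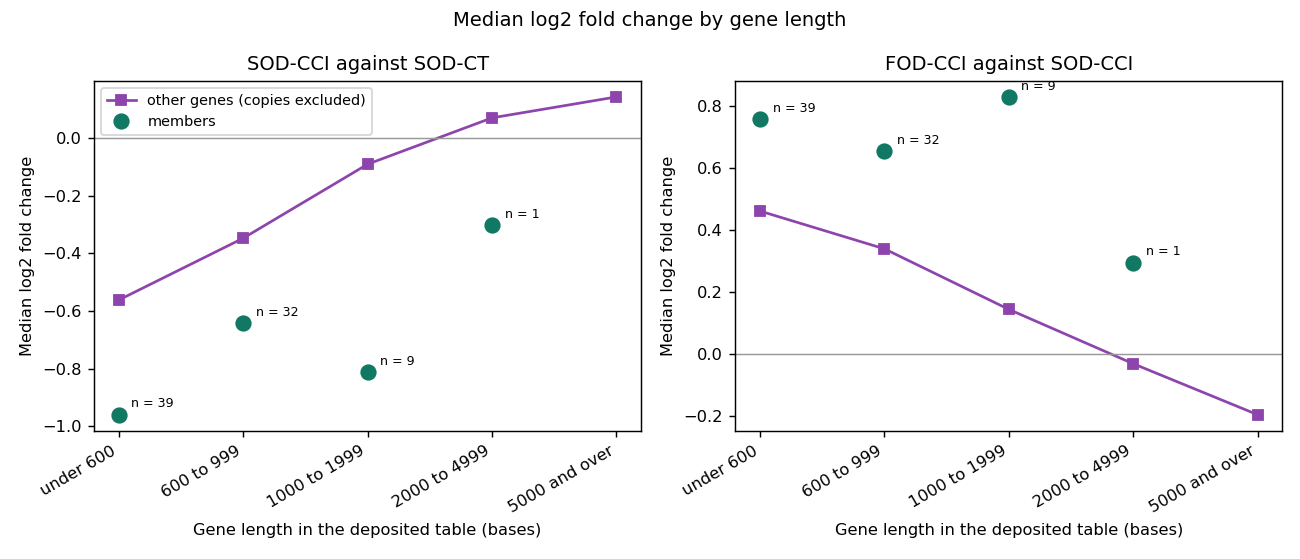
Median log2 fold change by class of gene length (bases) for ribosomal protein genes and for other genes, in SOD-CCI against SOD-CT and in FOD-CCI against SOD-CCI. Among other genes the shortest class stands furthest from 0 in both, and members stand further from 0 than other genes in each class they share. The class that begins at 2000 bases holds 1 member, Rpl7l1.

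Genes of related function were looked at as lists. Fau, which encodes a ubiquitin-like protein fused to a ribosomal protein and falls outside the symbol rule, had a log2 fold change of 0.45 in FOD-CCI against SOD-CCI. Of 16 other genes with TOP mRNAs or a role in elongation, 15 were tested and 15 were higher, with a median of 0.33. Naca (0.69, unadjusted p = 0.0422) was the 1 that passed an unadjusted p of 0.05, and Tpt1 (0.99, SE 0.61), Rack1 (0.65), Eef1a1 (0.33) and Eef2 (0.16) did not. With injury on soy oil (SOD-CCI against SOD-CT), 4 were higher and 11 lower, with a median of -0.36.

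The medians of genes that build, check or govern ribosomes lay nearer to 0 than that of the members. Ribosome biogenesis factors (21 rows tested) split into 11 higher and 10 lower in FOD-CCI against SOD-CCI, with a median of 0.03 and 0 at an unadjusted p under 0.05. Of 11 tested genes of ribosome quality control, 1 was higher and 10 lower (median -0.14), and Ascc3 (-0.59, unadjusted p = 0.0191) was lower at that p. Of 14 genes of nonsense-mediated decay, 6 were higher and 8 lower (median -0.15), with Magoh (1.12, unadjusted p = 0.0264) higher. Of 16 mTOR pathway genes, 5 were higher and 11 lower (median -0.13), with 0 at that p and Larp1 at -0.40. None of the genes in these lists was called by edgeR, in a comparison where 0% of all genes were.

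Among the genes outside the set whose log2 CPM followed the member index most closely over the 20 libraries were Tpt1 (Spearman 0.973), LOC100360522 (0.965), Gng10 (0.958), LOC100911847 (0.938), Erh (0.938), Pfdn5 (0.934), LOC301124 (0.934), Rpl36a-ps2 (0.932) and Snrpc (0.931). Rows that the annotation describes as ribosomal protein copies but that fall outside the rule numbered 1646, and they held 10.7% to 14.1% of the counts of members and copies together. Of the 110 such rows tested in left DRG, 105 were higher and 5 lower in FOD-CCI against SOD-CCI (median 0.68), and 7 were higher and 103 lower in SOD-CCI against SOD-CT (median -0.91). Since reads of a gene and its near-identical copies could have been divided between rows, the level of any single member is uncertain to that extent.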

How the data were processed

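RNA of DRG was selected for poly(A) and sequenced, as 20 libraries from 14 rats. The authors used fastp for trimming and HISAT2 for alignment, and made the deposited counts with featureCounts 1.5.0-p3, as raw whole numbers per gene. The authors derived the deposited FPKM from the counts: each equals the count divided by gene length and by the DESeq2 size factor of the library, with a constant common to all libraries. The build of the genome, whether strand was used and how multiply aligned reads were handled are not given in the sources used here. The columns of all 20 samples were matched to labels (0 left over). That replicates are separate rats comes from the labels and the study's methods, and 2 planned samples were left out by the authors before library preparation.

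The tests ran with edgeR 4.0.16 (TMM scaling, quasi-likelihood test, R 4.3.3) on genes that reached 10 counts in 90% or more of a model's libraries. The models were 3: the 14 left libraries, the 12 libraries of 6 rats with the rat as block, and the 7 sham with 6 contralateral libraries. Benjamini-Hochberg adjustment ran over all genes tested, and a gene was called at an adjusted p of 0.1 or less with a fold change of 1.2 or more. The SE of a log2 fold change was its size divided by the square root of F. The median SE over members was 0.34 among left DRG. The member index used a prior count of 1. Alternatives were DESeq2 1.42.0, limma 3.58.1 on log2(FPKM + 1), other scalings and filters, a length correction, the replicate number as block, and leaving out libraries. The edgeR script was tested on simulated counts. Their dispersion was lower than the common dispersion of 0.21 in the left DRG, so that test does not show what could be detected here. Figures were drawn with matplotlib 3.10.9.

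The members and all lists were chosen with earlier results of these data known. Genes named are those the study names, the 3 highest and 3 lowest members per comparison, the 5 highest and lowest by FPKM, stalk genes and paralog pairs, the least and most variable members, those not tested, and the 10 genes most like the index. Members named for a count of 11 or fewer, and Rps19, Rpl34 and Rps28 in full, were added after their values were seen. Some genes that this rule names are not reported here, so lists of highest and lowest members can be incomplete.

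Left and contralateral libraries of a rat share an animal, and their deviations from group means correlated at 0.43, 0.142 and 0.158 in SOD-CCI and 0.379, 0.125 and 0.168 in FOD-CCI. Same-numbered rats of FOD-CT and FOD-CCI, which are different animals, correlated at 0.429, 0.237 and 0.191, and the other group pairs at -0.269 to 0.229.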

Additional observations from a re-analysis of the deposited data

Results flagged for a closer look

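Among groups of 4 libraries, 40 sets of FPKM values of named members and 6 sets of library values (the member index, the share of counts and the small less large subunit index in both groups) were checked for a library far from the other 3, measured as its gap to the nearest of them divided by the range of the group, and set against Dixon's 95% bound. Chance alone passes about 1 group in 20, and 9 of the 46 passed, all of them FPKM values. Of them, 7 were in SOD-CT, each with replicate 1, the library with the most skeletal muscle markers, at the top. These were Rpl3l (gap 0.963 of a range from 0.212 to 434 FPKM), Rpl10 (0.939, 355 to 882 FPKM), Rpl6 (0.917, 212 to 475 FPKM), Rps28 (0.893, 74.6 to 302 FPKM), Rpl38 (0.891, 172 to 466 FPKM), Rplp0 (0.863, 479 to 1386 FPKM) and Rpl4 (0.832, 263 to 963 FPKM). The other 2 were in FOD-CCI, with replicate 2 at the top, which had the most red cell markers and the largest share of counts in members. They were Rpl22l1 (0.936, 313 to 935 FPKM) and Rpl7l1 (0.860, 31.3 to 37.6 FPKM). The members share libraries, so these are not separate observations.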

How the results depend on the processing

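Of 794 values recomputed under alternatives, 751 kept their direction and side of the threshold, 18 moved, 19 reversed and 6 became calls. edgeR and limma called 0 members in all 11 comparisons under every alternative run with them. Within-group spread (SD of the member index 0.39) sets what 3 or 4 rats per group can show.

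DESeq2 called 23 members in SOD-CCI against SOD-CT, 17 for the interaction, and, on the contralateral side, 3 in SOD-CCI against SOD-CT and 1 between the diets. Its counts over all genes are given above for left DRG and are not given for the contralateral side. With SOD-CT replicate 1 also left out, chosen after seeing the data, it called 30 in FOD-CCI against SOD-CCI and 19 between contralateral DRG, and medians were -0.34 for SOD-CCI against SOD-CT, -0.025 for FOD-CT against SOD-CT and -0.20 for contralateral SOD-CCI against SOD-CT.

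The length correction gave medians of -0.27 for SOD-CCI against SOD-CT, 0.31 for FOD-CCI against SOD-CCI, 0.37 for the interaction, -0.22 for contralateral SOD-CCI against SOD-CT and 0.012 for left against contralateral in SOD-CCI rats, and edgeR counts at an unadjusted p under 0.05 of 21, 20 and 18 in the first 3. Without the 3 libraries with spinal cord markers, medians were 0.035 for left against contralateral in FOD-CCI rats and 0.037 for the diet difference of that change. In that setting 46 members did not overlap in FOD-CCI against FOD-CT, against 14.7% of all genes. In FOD-CT against SOD-CT 1 member did not overlap, against 3.38% of all genes, a share that the members did not exceed.

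Leaving out 1 library gave medians of -0.94 to -0.33 for SOD-CCI against SOD-CT, -0.65 to -0.017 for FOD-CT against SOD-CT, -0.87 to -0.22 for contralateral SOD-CCI against SOD-CT, -0.33 to 0.082 and -0.45 to 0.035 for left against contralateral in SOD-CCI and FOD-CCI rats, and -0.36 to 0.16 for their difference. The range was 0.59 to 0.79 for FOD-CCI against SOD-CCI, 0.27 to 0.46 for FOD-CCI against FOD-CT and 0.73 to 1.33 for the interaction. It was 0.39 to 0.60 for contralateral FOD-CCI against FOD-CT and 0.48 to 0.92 between the contralateral DRG of the diets. The cause of these shifts was not tested.

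With the replicate number as block (replicate block), 0 members were called in each comparison, so no call changed. Members at an unadjusted p under 0.05 went from 41 to 26 in SOD-CCI against SOD-CT, 55 to 30 for the interaction and 7 to 1 in FOD-CT against SOD-CT, with medians of -0.67, 1.04 and -0.38. Shares of all genes at that p under the length correction and the replicate block are not given here. The member counts under those settings cannot be set against them. The blocked median was 0.38 in FOD-CCI against FOD-CT and 0.71 in FOD-CCI against SOD-CCI. Without the rat as block the medians of left against contralateral were -0.10 in SOD-CCI and -0.11 in FOD-CCI rats, and -0.02 for their difference.

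Of the genes followed singly, 4 reversed. Across all 81, the length correction left 71 higher (from 81) in FOD-CCI against SOD-CCI and 20 higher (from 2) in SOD-CCI against SOD-CT. In SOD-CCI against SOD-CT, Rpl6 was 0.087 with library totals, 0.17 with the length correction, 0.20 with DESeq2 without SOD-CT replicate 1, and leaving out 1 library in edgeR gave it -0.23 to 0.21. Rps4y2 was -0.11 and Rpl3 -0.058 with that DESeq2 fit, and leaving out 1 library gave them -0.52 to 0.80 and -0.050 to 0.13. In FOD-CCI against SOD-CCI, Rpl38 was -0.37 with the length correction.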
